A study of Vitis vinifera with 24 samples.

Results

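The PR10 cluster is a run of neighbouring loci on chromosome 5 of grapevine (Vitis vinifera), taken here as every locus with an identifier from VIT_05s0077g01530 to VIT_05s0077g01690. That range holds 16 of the 29971 loci measured. The range was chosen by a measured level: it contains VIT_05s0077g01580, the locus with the highest level in callus at day 40 of culture. Levels in day 40 callus are therefore given as a description, with no test. The name PR10 rests on published locus assignments, since the files pair no identifier with a name, and whether each of the 16 loci encodes such a protein is not given there. The RefSeq gene table for another assembly of this species, ASM3070453v1, lists 8 genes with PR10 symbols on chromosome 5, and none could be paired with a locus of the files.

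PR10 proteins are small intracellular proteins of the pathogenesis-related class 10, a family that also includes the major birch pollen allergen. They share a fold with a large internal cavity that can hold hydrophobic ligands such as plant hormones and flavonoids. Their genes often lie in tandem copies, and in many plants they are switched on by pathogens, wounding and other stress, and also during development.

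RNA was measured in anthers and in callus grown from them, in a study of somatic embryogenesis, in which embryos form from tissue in culture without fertilisation. There were 8 groups of 3 libraries. Each of the cultivars Cabernet Sauvignon (CS, labelled poorly competent for embryogenesis) and Sangiovese (SG, labelled highly competent) gave anthers from immature flowers, callus at day 40, embryogenic callus (EC) and callus that was not embryogenic (NEC). Culture started in darkness, with 2,4-D (an auxin) and BAP (a cytokinin) in the medium. EC and NEC had moved on to one containing the auxins NOA and IAA, BAP and activated charcoal, and were told apart under a stereomicroscope at month 4. The labels call the libraries biological replicates but do not say whether they came from separate plants or cultures. P-values therefore weigh a difference only against the spread between these libraries, pooled over the groups fitted.

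Levels are FPKM, fragments scaled to transcript length and library size, and can be compared between loci. Read numbers are unknown; relative depth, estimated from low values, ran from 0.889 to 1.51. Of the B-class floral loci PISTILLATA, APETALA3 and TM6, markers of stamens by published assignments, the summed level was 1153 to 1430 FPKM in anthers and 996 to 1894 in day 40 callus. It was 276 to 332 FPKM in NEC and 1.29 to 57.4 in EC. The markers did not move together. TM6 had means of 270 FPKM in CS NEC and 279 in SG NEC, beside 320 and 378 in anthers. PISTILLATA had 952 (CS) and 785 (SG) FPKM in anthers, and 14.1 and 20.1 in NEC. APETALA3 had 49.3 and 57.4 FPKM in anthers, and 2.86 and 5.10 in NEC. In CS EC the PISTILLATA mean was 29.5 FPKM, above that of CS NEC, with overlapping libraries. No marker of embryogenic callus was tested. Some libraries stood apart from their group in the cluster, CS NEC replicate 3 and SG EC replicates 1 and 2 most of all, and results that rest on them are given with and without them. In these tissue extracts, fewer cells of a type and less RNA per cell cannot be told apart.

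The cluster was prominent in day 40 callus and NEC and low in anthers and EC, in both cultivars. Its 16 loci together held 3.98% to 3.99% of the summed FPKM of the CS day 40 libraries and 3.59% to 3.66% in SG. In NEC the share was 1.68% to 2.80% in CS and 3.37% to 3.64% in SG. In EC it was 0.183% to 0.352% in CS and 0.0154% to 0.242% in SG, and in anthers 0.155% to 0.171% and 0.0579% to 0.152%. One locus made up most of it: VIT_05s0077g01580 held 77.6% to 97.5% of the cluster's FPKM over the 24 libraries.

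**Figure D1:**
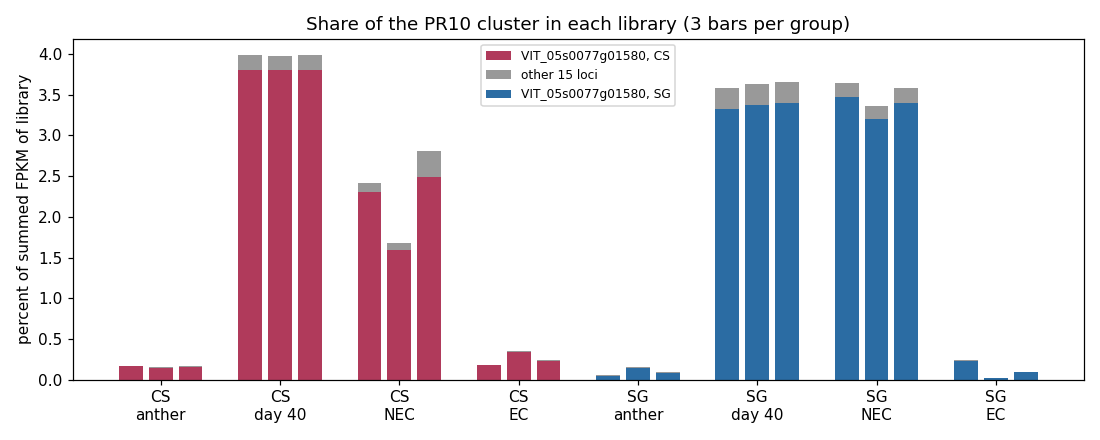
Percent of each library's summed FPKM held by the cluster, with 1 bar per library and 3 per group. The coloured part is VIT_05s0077g01580 and the grey part the other 15 loci; day 40 and NEC bars lie between 1.68% and 3.99%, and all anther and EC bars at or under 0.352%.

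VIT_05s0077g01580 was at 35366, 35689 and 35296 FPKM in CS day 40 callus, and at 30408, 30855 and 30793 in SG. These were the highest means of any locus in both groups, which is how the cluster was chosen. Its NEC libraries were at 20238, 14064 and 22105 FPKM in CS and at 29758, 26869 and 29181 in SG. It was thus the most abundant locus of SG NEC too, and the second, at rank 2, of CS NEC. In EC it was at 1387, 2756 and 1871 FPKM in CS and at 1824, 115 and 698 in SG. In anthers it was at 1232, 1095 and 1153 FPKM in CS and at 328, 1086 and 641 in SG.

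The order of its means ran from CS and SG day 40 callus through SG NEC, CS NEC, CS EC, CS anthers and SG EC to SG anthers. The day 40, SG NEC and CS NEC libraries formed separate ranges, without overlap. CS EC lay just above CS anthers, whereas the SG EC libraries overlapped those of CS EC, CS anthers and SG anthers. Even in the tissues where the cluster was low this locus stayed among the abundant ones, at rank 36 of all loci in CS anthers, 78 in SG anthers, 16 in CS EC and 72 in SG EC.

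VIT_05s0077g01650 was near the floor in anthers and high in callus. It was at 0.152, 0.356 and 0.194 FPKM in CS anthers and at 0.377, 0.718 and 0.371 in SG anthers. At day 40 it was at 605, 586 and 575 FPKM in CS and at 441, 423 and 455 in SG. The NEC libraries gave 564, 440 and 544 FPKM in CS and 719, 652 and 751 in SG. In EC it was at 21.9, 59.6 and 37.1 FPKM in CS and at 8.83, 1.20 and 3.33 in SG, so every CS EC library lay above every SG EC library. VIT_05s0077g01680 had a like course at a lower level: at or under 0.239 FPKM in all anther libraries, 9.92 to 29.6 at day 40, 25.1 to 40.8 in NEC and 0.166 to 1.79 in EC.

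The neighbouring loci VIT_05s0077g01560 and VIT_05s0077g01570 ran close together, with a Pearson r of 0.996 over the 8 group means of log2(FPKM + 1). They were clearly present in anthers, VIT_05s0077g01560 at 22.0, 22.9 and 22.3 FPKM in CS and at 40.1, 19.6 and 32.7 in SG. At day 40 it was at 308, 307 and 301 FPKM in CS and at 684, 693 and 680 in SG. In CS NEC it was at 175, 107 and 952 FPKM and in SG NEC at 258, 231 and 253. It was at 11.3, 16.0 and 16.2 FPKM in CS EC and at 16.8, 0.220 and 6.40 in SG EC. VIT_05s0077g01570 was at 910 ± 13.8 FPKM (SD, n = 3) in SG day 40 callus and at 313 ± 8.88 in CS. Tandem copies may share reads, and no source used here says how the authors' counting split such reads, so the value of any single locus is uncertain.

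VIT_05s0077g01530, VIT_05s0077g01540 and VIT_05s0077g01550 were low in anthers, at 0.259 to 2.77 FPKM, and ran from 13.0 to 57.8 at day 40. In CS NEC a single library set their means. VIT_05s0077g01530 was there at 24.5, 49.2 and 236 FPKM, VIT_05s0077g01540 at 4.99, 5.65 and 142, and VIT_05s0077g01550 at 7.40, 3.92 and 191, with replicate 3 last each time. In SG NEC the libraries of each of these loci lay closer together, at 9.86 to 22.6 FPKM over all of them.

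VIT_05s0077g01670 differed from its neighbours in that its level was high at day 40 alone. It was at 326, 352 and 333 FPKM in CS day 40 callus and at 233, 232 and 232 in SG. By NEC it was at 16.4, 12.0 and 18.5 FPKM in CS and at 25.2, 41.8 and 22.7 in SG. The day 40 mean was 21.5 times the NEC mean in CS and 7.77 times in SG, with no overlap. For VIT_05s0077g01580 the same ratios were 1.89 and 1.07, again with no overlap. In anthers VIT_05s0077g01670 was at 19.2, 25.6 and 23.7 FPKM in CS and at 5.60, 18.6 and 10.8 in SG, and in EC at 0.261 to 3.81.

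A pair of loci was prominent in NEC of a single cultivar, each in a different one. VIT_05s0077g01600 was at 19.3, 19.5 and 20.9 FPKM in SG NEC and at 1.16, 0.541 and 6.32 in CS NEC, and at or under 1.84 in all other libraries. VIT_05s0077g01690 was at 7.91, 18.9 and 17.7 FPKM in CS NEC and at 0.760, 0.919 and 1.72 in SG NEC, and at or under 3.03 elsewhere. The ranges of the cultivars in NEC did not overlap for either locus.

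The remaining 5 loci were barely detected. VIT_05s0077g01660 reached 4.61 FPKM in SG NEC. VIT_05s0077g01590 and VIT_05s0077g01630 reached 0.519 and 1.19 FPKM, and VIT_05s0077g01620 and VIT_05s0077g01640 were listed at 0 in all 24 libraries.

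**Figure D2:**
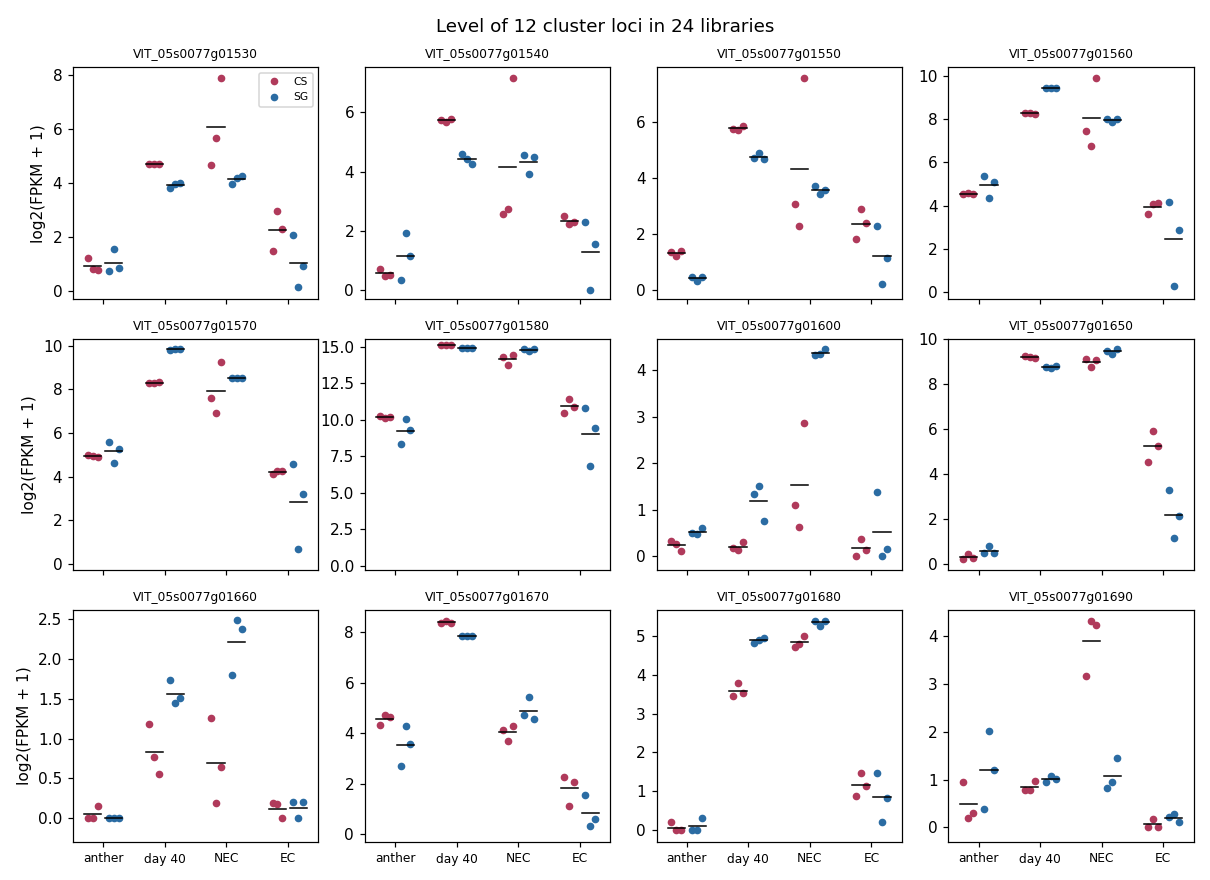
Level of 12 cluster loci as log2(FPKM + 1), with 1 point per library, coloured by cultivar, and a black line at each group's mean of these log2 values; the vertical axes differ between panels. Day 40 and NEC points stand above anther and EC points for VIT_05s0077g01580, while VIT_05s0077g01670 is high at day 40 alone, VIT_05s0077g01600 in SG NEC and VIT_05s0077g01690 in CS NEC.

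Over the 11 loci with a group mean of 10 FPKM or more, the 55 pairwise Pearson r of the 8 group means of log2(FPKM + 1) ranged from 0.118 to 0.996, with a median of 0.831. Among the 28 pairs without VIT_05s0077g01600, VIT_05s0077g01670 and VIT_05s0077g01690 the lowest was 0.806. These points share libraries, so r is a description only.

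CS NEC replicate 3 separated the cluster into parts. In that library the 5 adjoining loci VIT_05s0077g01530 to VIT_05s0077g01570 stood above the mean of the other CS NEC libraries, by ratios of 6.40, 26.7, 33.8, 6.77 and 3.90 in locus order. VIT_05s0077g01600 stood above it too, with a ratio of 7.44. For VIT_05s0077g01580 the ratio was 1.29, for VIT_05s0077g01650 1.08, for VIT_05s0077g01670 1.30, for VIT_05s0077g01680 1.20 and for VIT_05s0077g01690 1.32. In the same library the summed level of 39 loci for stilbene synthase, the enzyme behind resveratrol, was 6.87 times that of the other CS NEC libraries. For the PR1 loci that ratio was 0.991, for class IV chitinase loci 1.07 and for thaumatin and osmotin-like loci 0.955. The part of this library's state or origin in these values was not tested.

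SG EC differed in kind. Its replicate 1 was above the mean of the other SG EC libraries at all 12 loci tested, by ratios from 1.11 for VIT_05s0077g01690 to 28.2 for VIT_05s0077g01600, and by 4.49 for VIT_05s0077g01580. Replicate 2 was the lowest library at 11 of the 12 loci, the exception being VIT_05s0077g01690. Sums of other defence loci stood apart in the same way in replicate 1, by 5.23 for beta-1,3-glucanase, 5.40 for class IV chitinase, 4.98 for thaumatin and osmotin-like and 5.07 for stilbene synthase loci, against 1.36 for PR1. The summed B-class floral markers of this group ran from 1.29 to 22.8 FPKM, and their part in the result was not tested.

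**Figure D3:**
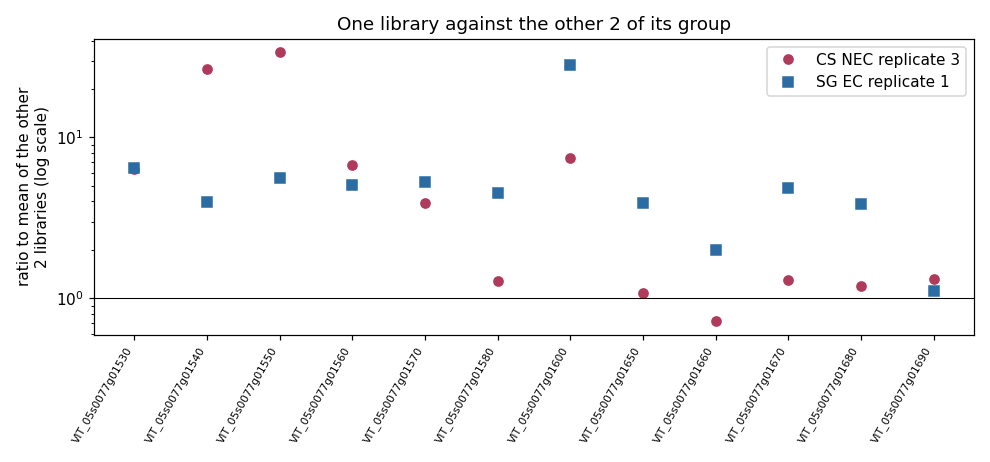
Ratio of a locus's FPKM in CS NEC replicate 3 (circles) and SG EC replicate 1 (squares) to its mean in the other libraries of the same group, on a log axis, with a line at 1. The circles for VIT_05s0077g01530 to VIT_05s0077g01570 lie between 3.90 and 33.8 and those for VIT_05s0077g01650 to VIT_05s0077g01690 between 0.721 and 1.32.

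The groups other than day 40 callus were compared with limma on log2(FPKM + 1), in 1 fit of 18 libraries. Testing was limited to loci that reached 1 FPKM in 3 or more of these libraries, 21254 in all and 12 of the cluster. VIT_05s0077g01590, VIT_05s0077g01620, VIT_05s0077g01630 and VIT_05s0077g01640 did not pass. VIT_05s0077g01600, VIT_05s0077g01660 and VIT_05s0077g01690 passed only through NEC: outside it 1, 0 and 2 of their libraries reached 1 FPKM. The filter itself favours a difference of these 3 loci from NEC, so counts are also given for the other 9. A locus is called at a Benjamini-Hochberg adjusted p under 0.05 over all loci tested. Differences on this scale understate the change of low loci.

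The central comparison asked how EC differed from NEC of the same cultivar. Most of the cluster was lower in EC in CS and all of the loci tested were lower in SG. In CS 10 of the 12 loci fell, where 27.3% of all loci tested were lower, and in SG 12 fell, where 31.5% were. None rose in either. Without the 3 loci that passed only through NEC, 7 of 9 fell in CS and 9 of 9 in SG. For the 12 loci the median log2 difference came to -3.47 (CS) and -3.96 (SG), and for all loci tested to 0.32 and 0.16.

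VIT_05s0077g01580 fell by 3.26 on the log2 scale in CS (standard error 0.70), at a limma adjusted p of 0.00056. Its NEC mean was 9.38 times the EC mean. In SG it fell by 5.76, at a limma adjusted p of 2.1e-06, and the NEC mean was 32.5 times the EC mean. Without SG EC replicate 1 the SG EC mean was 406 FPKM in place of 879, and the log2 difference -6.65. Leaving out that library lowered the SG EC mean of 10 of the 12 loci by factors from 1.95 to 10.1.

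VIT_05s0077g01650 changed by -3.78 in CS and -7.28 in SG (standard error 0.40 for each), at limma adjusted p of 5.1e-07 and 3.6e-10. Without SG EC replicate 1 its SG EC mean went from 4.45 to 2.27 FPKM and the log2 difference was -7.84. The low-level VIT_05s0077g01680 changed by -3.68 and -4.50, with the smallest adjusted p of the cluster in each cultivar, 1.4e-09 and 1.8e-10 by limma.

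VIT_05s0077g01560 changed by -4.10 in CS and -5.51 in SG, and VIT_05s0077g01570 by -3.72 and -5.69. Without CS NEC replicate 3 the CS differences were -3.16 and -3.06, with NEC means of 141 and 156 FPKM in place of 411 and 306, and both loci were still called. VIT_05s0077g01670 changed by -2.21 in CS, from a mean of 15.7 FPKM to 2.75, and by -4.06 in SG, from 29.9 to 0.916.

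The first loci of the run were the least certain. VIT_05s0077g01530 changed by -3.83 in CS and -3.09 in SG; without CS NEC replicate 3 its CS NEC mean was 36.8 FPKM in place of 103 and the difference -2.92. VIT_05s0077g01540 had a log2 difference of -1.81 in CS with a limma adjusted p of 0.081, and VIT_05s0077g01550 one of -1.94 with 0.073. Without CS NEC replicate 3 these were -0.31 and -0.30. Without replicate 1 or replicate 2 of that group both were called, at limma adjusted p of 0.021 and 0.028 for VIT_05s0077g01540 and 0.035 and 0.0087 for VIT_05s0077g01550, and so they were with median-of-ratios scaling. In SG they changed by -3.04 and -2.37, and the call of VIT_05s0077g01550 was lost without any single SG NEC library and without SG EC replicate 2 or replicate 3, at limma adjusted p from 0.056 to 0.12.

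VIT_05s0077g01600 changed by -3.87 in SG and -1.36 in CS, where the call was lost without CS NEC replicate 3, at a limma adjusted p of 0.051. VIT_05s0077g01690 fell by 3.84 in CS, from 14.9 ± 6.04 FPKM to libraries at 0, 0.136 and 0, as a locus tested only because of its NEC level. In SG it fell by 0.87 with a limma adjusted p of 0.040, and this call was lost when any of 5 single libraries was left out, all but SG NEC replicate 1. VIT_05s0077g01660 changed by -0.58 in CS and -2.09 in SG, and the CS call was lost without CS NEC replicate 1 or CS EC replicate 3.

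**Figure D4:**
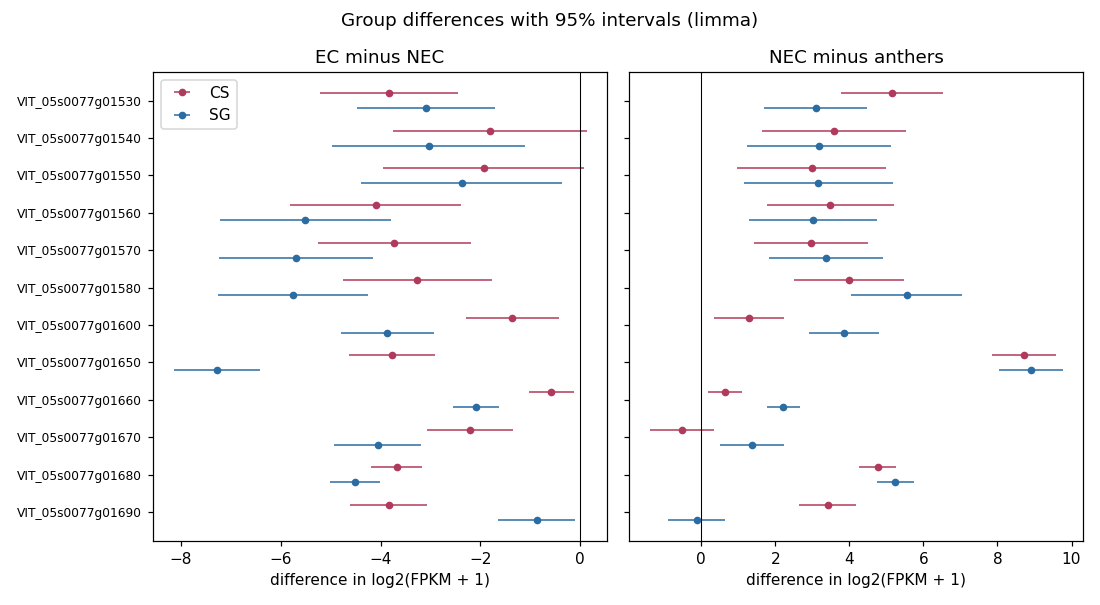
Differences in log2(FPKM + 1) between EC and NEC (left) and between NEC and anthers (right) for 12 cluster loci, with points for the limma estimate, bars for its 95% interval and colours for the cultivar. All points on the left lie below 0, with the intervals of VIT_05s0077g01540 and VIT_05s0077g01550 in CS reaching past it; on the right VIT_05s0077g01650 lies highest, at 8.71 and 8.90.

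An interaction term tested whether CS and SG differed in how far EC stood from NEC. Of the 12 loci, 4 had a more negative and 1 a less negative difference in SG, so 5 were called, or 41.7%, where 41.9% of all loci tested were. Of the 9 loci that did not depend on NEC to pass the filter, 2 were called. VIT_05s0077g01650 had the largest interaction, -3.51 (standard error 0.57), at a limma adjusted p of 0.00025. VIT_05s0077g01600 had one of -2.50, a call lost at a pseudocount of 0.1 (limma adjusted p 0.098), VIT_05s0077g01670 one of -1.85 and VIT_05s0077g01660 one of -1.51. VIT_05s0077g01690 went the other way, with 2.97 (standard error 0.51), at a limma adjusted p of 0.00038.

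VIT_05s0077g01580 had an interaction of -2.50 with a 95% interval from -4.61 to -0.38 and a limma adjusted p of 0.055. Without SG EC replicate 1 it was -3.39 with an adjusted p of 0.0040. Without that library 8 cluster loci were called, and without CS NEC replicate 3 also 8. Over the interaction fits with 1 library left out, 7658 to 9256 of the 21254 loci tested were called.

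NEC was then compared with anthers, the tissue the callus came from. In CS 11 of the 12 loci rose, where 34.0% of all loci tested were higher, and in SG 11 rose, where 37.0% were. Without the 3 loci that passed only through NEC, 8 of 9 rose in CS and 9 of 9 in SG. For the 12 loci the median log2 difference came to 3.45 (CS) and 3.17 (SG), against -0.10 and -0.01 over all loci tested. VIT_05s0077g01650 rose by 8.71 in CS and 8.90 in SG, and VIT_05s0077g01680 by 4.77 and 5.24.

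VIT_05s0077g01580 rose by 3.99 in CS and 5.54 in SG (standard error 0.70 for each), at limma adjusted p of 9.3e-05 and 3.4e-06. The NEC mean was 16.2 times the anther mean in CS and 41.8 times in SG. In CS the call of VIT_05s0077g01600 was lost without CS NEC replicate 3 and that of VIT_05s0077g01660 without CS NEC replicate 1, at limma adjusted p of 0.075 and 0.077. A different locus did not pass in each cultivar. In CS it was VIT_05s0077g01670, with a log2 difference of -0.53, a 95% interval from -1.39 to 0.34 and a limma adjusted p of 0.25. In SG it was VIT_05s0077g01690, with -0.13, an interval from -0.90 to 0.65 and a limma adjusted p of 0.76. A fit limited to CS NEC and CS anthers called VIT_05s0077g01670 lower in NEC, at a limma adjusted p of 0.037, without overlap of libraries. That fit lost the calls of VIT_05s0077g01550, VIT_05s0077g01600 and VIT_05s0077g01660, at limma adjusted p of 0.094, 0.084 and 0.066.

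EC and anthers, both tissues with a low cluster, differed at fewer of its loci in the fit of 18 libraries. In CS 2 of the 12 loci were higher in EC and 1 lower, where 79.7% of all loci tested were called. In SG 2 were higher and 4 lower, where 78.5% of all were. The spread in that fit is pooled over all its groups, and the counts depended on this. With the compared groups alone 9 of the 12 loci were called in CS, 6 higher and 3 lower. In SG that setting gave 2, with 1 higher and 1 lower. The share of all loci called with the compared groups alone is not given here, so these counts are a description only. VIT_05s0077g01650 was higher in EC by 4.93 in CS and 1.62 in SG, and VIT_05s0077g01680 by 1.09 and 0.74. The SG call of VIT_05s0077g01680 was lost without SG EC replicate 1, at a limma adjusted p of 0.057.

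VIT_05s0077g01670 was lower in EC than in anthers in both cultivars, by log2 differences of -2.74 in CS and -2.69 in SG. In SG VIT_05s0077g01560, VIT_05s0077g01570 and VIT_05s0077g01690 were lower as well, by -2.49, -2.32 and -0.99. The call of VIT_05s0077g01560 was lost without SG EC replicate 2, and that of VIT_05s0077g01690 without SG anther replicate 2 or SG EC replicate 3. VIT_05s0077g01580 had a log2 difference of 0.73 in CS, with a 95% interval from -0.76 to 2.23. In SG it was -0.21, with an interval from -1.71 to 1.28. In the fit of 18 libraries neither direction nor equality was thus shown for this locus. Its CS EC libraries, at 1387 to 2756 FPKM, nevertheless all lay above its CS anther libraries, at 1095 to 1232. A fit limited to CS EC and CS anthers called it higher in EC, at a limma adjusted p of 0.039. The CS result therefore depended on which groups set the spread.

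The cultivars were compared within tissues. In NEC 2 loci were above and 2 below the CS level in SG, where 49.6% of all loci tested were called. Of these 4, VIT_05s0077g01600, VIT_05s0077g01660 and VIT_05s0077g01690 were tested only because of their NEC levels, which leaves 1 of 9. VIT_05s0077g01600 was higher in SG by 2.85 (standard error 0.44), at a limma adjusted p of 8.1e-05, and VIT_05s0077g01660 by 1.52. VIT_05s0077g01690 was lower in SG, by -2.83 (standard error 0.36), at a limma adjusted p of 1.4e-05. VIT_05s0077g01530 was lower by -1.94, a call lost without CS NEC replicate 3 or SG NEC replicate 1. VIT_05s0077g01580 had a difference of 0.63, with a 95% interval from -0.86 to 2.13.

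In EC 2 loci were lower in SG than in CS, where 47.0% of all loci tested were called. VIT_05s0077g01650 was lower by -3.05 with a limma adjusted p of 2.8e-05, the CS mean being 8.88 times the SG mean. VIT_05s0077g01580 was lower by -1.87 with a limma adjusted p of 0.040. That call was lost without any of the 3 CS EC libraries and without SG EC replicate 2 or replicate 3, and with the replicate number as a block, at an adjusted p of 0.055. Without SG EC replicate 1 it was called and 6 cluster loci in all were lower. Over the fits with 1 EC library left out, 8002 to 9890 of all loci tested were called. Among anthers 0 of the 12 loci were called by limma, where 39.0% of all loci tested were, and VIT_05s0077g01670 alone had an unadjusted p under 0.05 (1 locus, limma adjusted p 0.054). Without SG anther replicate 1, or without replicate 2, 1 locus was called.

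Day 40 callus of the cultivars also differed in level, described here without a test. SG was above CS at VIT_05s0077g01560 and VIT_05s0077g01570, with ratios of the means of 2.25 and 2.91, and at VIT_05s0077g01680 with 2.58. At the low levels of VIT_05s0077g01600 and VIT_05s0077g01660 the ratios were 8.53 and 2.41. CS was above SG at VIT_05s0077g01530, VIT_05s0077g01540 and VIT_05s0077g01550, with ratios of 1.77, 2.56 and 2.05, and at VIT_05s0077g01580, VIT_05s0077g01650 and VIT_05s0077g01670 with 1.16, 1.34 and 1.45. None of these ranges overlapped, whereas those of VIT_05s0077g01690 did. The share of all loci without overlap at day 40 was not determined, so this is a description only. The libraries of each day 40 group agreed closely, with a coefficient of variation of 0.591% in CS and 0.789% in SG for VIT_05s0077g01580, against 5.34% to 98.8% in the other groups.

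The edges of the range were not marked by a common level. Just before it, VIT_05s0077g01500 and VIT_05s0077g01510 had group means of 64.8 to 155 and 10.1 to 16.6 FPKM with the highest in CS anthers, and VIT_05s0077g01520 reached 3.16 in CS NEC. Just after it, VIT_05s0077g01700 had group means of 0.150 to 2.16 FPKM and VIT_05s0077g01710 of 14.1 to 25.1, both highest in SG EC. VIT_05s0077g01720, whose SG means were 15.7 ± 1.45 FPKM for NEC and 1.25 ± 0.279 for EC, was low in anthers as well, at 0.102 ± 0.0512 in CS and 0.645 ± 0.176 in SG.

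Among 15542 loci with a group mean of 10 FPKM or more, those most like VIT_05s0077g01580 over the 8 group means of log2(FPKM + 1) were VIT_11s0016g04520, VIT_18s0001g05400 and VIT_11s0016g03320. Their Pearson r was 0.996, 0.996 and 0.995, but their group means spanned only 12.0 to 24.4, 4.14 to 52.9 and 30.0 to 67.1 FPKM. Most like VIT_05s0077g01650, the locus with the next highest mean over all 24 libraries, were VIT_01s0011g00720, VIT_14s0006g00350 and VIT_13s0019g00870, with r of 0.999, 0.997 and 0.997. The second of these ran from 16.9 to 761 FPKM.

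Loci of other pathogenesis-related classes and of stilbene synthase, listed by published assignments, stood beside the cluster in the EC to NEC comparison. All 5 class IV chitinase loci tested, which encode enzymes that cleave fungal cell walls, fell in CS and 4 fell in SG. All 4 beta-1,3-glucanase loci fell in both cultivars, and of 10 thaumatin and osmotin-like loci 8 fell and 1 rose in each. Of 7 PR1 loci tested 4 fell in each cultivar, with 1 rise in SG. Of 30 stilbene synthase loci 27 fell in CS and 21 in SG. How many loci of these lists passed the filter only through NEC was not determined. The filter favours a fall of such loci, so these counts are a description only. The background was 27.3% lower in CS and 31.5% in SG among all loci tested, whose medians were 0.32 and 0.16. The median log2 differences in CS and SG were -6.67 and -4.39 for chitinase, -3.34 and -2.13 for glucanase, -4.14 and -6.02 for thaumatin and osmotin-like, -3.62 and -2.62 for PR1 and -2.91 and -2.35 for stilbene synthase loci.

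Their summed levels did not follow the cluster in every group. The PR1 sum was 77.4 ± 2.27 FPKM in CS day 40 callus and 5716 ± 161 in CS NEC, while the PR10 sum went from 37139 ± 215 to 20320 ± 5069. The chitinase sum was 6356 ± 83.8 and 25831 ± 1968 FPKM in the same groups, and 14785 ± 278 and 10663 ± 89.7 in SG, where the PR10 sum was 33048 ± 255 and 30066 ± 1589. These sums were not tested.

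**Figure D5:**
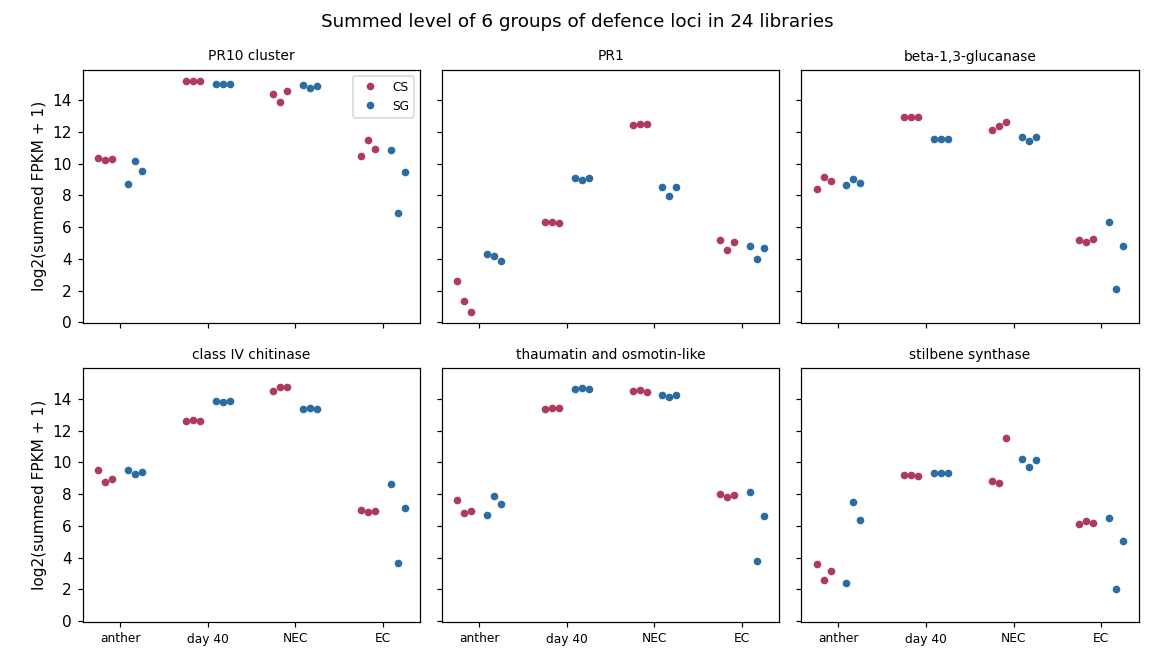
Summed level of the PR10 cluster and of 5 other groups of defence loci as log2(summed FPKM + 1), with 1 point per library, coloured by cultivar, on common axes. In all 6 panels the EC points lie below the NEC points of the same cultivar; the PR1 sum of CS is 77.4 FPKM at day 40 and 5716 in NEC, unlike the PR10 sum.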

How the data were processed

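The authors deposited FPKM values, 1 column per library for 29971 loci, and all 24 columns were matched to samples by title. Tools named, per the submitters' processing notes, include Cufflinks 2.1.1, TopHat2 2.0.9 and CASAVA 1.8.2. Genome build, annotation and any rescaling: not given in the sources used here. Count models were not applied to FPKM. Libraries were non-directional, per the labels' protocols, so reads of overlapping loci on opposite strands cannot be told apart. No pair of libraries was identical, which makes 0 such pairs. The number of reads is unknown, so no interval for counting error is given.

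From these values log2(FPKM + 1) was computed and fitted with limma 3.58.1 in R 4.3.3, with 1 mean per group, a trend of the spread with level and 12 residual degrees of freedom, over 18 libraries and 21254 loci. The day 40 libraries were left out, because their values chose the cluster. P-values were adjusted by Benjamini-Hochberg over all loci, separately for each of 10 comparisons. The steps were tested on simulated data for EC against NEC in CS alone. That simulation gave each locus the same spread in all groups and had no library that stood apart. The cluster, its neighbours and the defence lists were chosen with earlier results of these data known. The rule for named loci took every locus in the range, the 3 on each side and the 3 most alike in profile. Same-numbered replicates were not paired: the correlation of their deviations from group means ran from -0.27 to 0.17, with a median of 0.0038.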

Additional observations from a re-analysis of the deposited data

Results flagged for a closer look

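The EC to NEC difference of 5 cluster loci differed between the cultivars in the interaction test. That is 41.7% of the 12 tested, beside 41.9% of all loci, and VIT_05s0077g01600, VIT_05s0077g01660 and VIT_05s0077g01690 passed the filter only through NEC; of the other 9 loci 2 were called. It was more negative in SG by -3.51 on the log2 scale for VIT_05s0077g01650, by -2.50 for VIT_05s0077g01600, by -1.85 for VIT_05s0077g01670 and by -1.51 for VIT_05s0077g01660. It was less negative in SG by 2.97 for VIT_05s0077g01690. The limma adjusted p were 0.00025, 0.0050, 0.018, 0.0011 and 0.00038 in that order. The call of VIT_05s0077g01600 was lost at a pseudocount of 0.1, at a limma adjusted p of 0.098.

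The tissue in which the cultivars stood apart is given as a description, since the count of calls was near the share over all loci. For VIT_05s0077g01650 the cultivars were close in NEC, at 516 ± 66.5 FPKM in CS and 708 ± 50.5 in SG, and far apart in EC, at 39.5 ± 19.0 and 4.45 ± 3.93 (SD, n = 3). For VIT_05s0077g01600 and VIT_05s0077g01690 they were far apart in NEC, at 2.67 ± 3.17 against 19.9 ± 0.891 FPKM and at 14.9 ± 6.04 against 1.13 ± 0.512, and under 1 FPKM in mean in EC of both. Without CS NEC replicate 3 the CS NEC mean of VIT_05s0077g01600 was 0.849 FPKM.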

How the results depend on the processing

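Between EC and NEC, 9 to 12 cluster loci were lower in CS and 10 to 11 in SG when 1 library was left out at a time; between NEC and anthers 10 to 11 were called in CS and 11 in SG. The interaction count ran from 5 to 8, EC against anthers from 3 to 4 in CS and 5 to 6 in SG, and SG against CS from 0 to 1 in anthers, 3 to 4 in NEC and 1 to 6 in EC. Of 21254 loci tested, these fits called 15993 to 16345 between EC and NEC in CS and 15670 to 16009 in SG, in either direction. For NEC against anthers they called 15722 to 15918 in CS and 15506 to 16013 in SG. For the interaction they called 7658 to 9256, and for EC against anthers 16277 to 16496 in CS and 16041 to 16556 in SG. Between the cultivars they called 6652 to 9309 in anthers, 9212 to 9713 in NEC and 8002 to 9890 in EC. Other settings moved some counts of cluster loci by over 1.5 times. The counts of all loci under those settings are not given here, so the cluster counts below are a description only. A filter at a mean of 5 FPKM, which left 9 cluster loci, gave 2 in the interaction and 1 between the cultivars in NEC. Leaving out the 3 loci that passed the filter only through NEC, a setting chosen after seeing the data, also gave 2 and 1, and kept the other counts within 1.5 times. Without SG EC replicate 1 and SG NEC replicate 2 together the interaction gave 8 and the cultivars in EC 6. With all 8 groups in the fit EC against anthers in CS gave 5 and the cultivars in anthers 1. With the compared groups alone EC against anthers gave 9 in CS and 2 in SG, and the cultivars 2 in anthers and 1 in EC. Median-of-ratios scaling gave 1 for the cultivars in anthers and 1 in EC, and no filter gave 1 in EC; the causes were not tested.

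Same-numbered libraries were not paired, since 3 of 84 correlations were over 0.1. With the replicate block 78 of 79 single-locus results kept their side of the threshold, and the cultivar count in EC went to 1.

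Interactions that missed the threshold changed sign for VIT_05s0077g01530, to -0.13 at a pseudocount of 0.1, and over single libraries left out ran from -0.17 to 1.43 for that locus and from -2.07 to 0.57 for VIT_05s0077g01550. So did NEC against anthers in SG for VIT_05s0077g01690, from -0.54 to 0.28, and EC against anthers in SG for VIT_05s0077g01580, from -1.10 to 0.88. The interaction of VIT_05s0077g01600 was not called at that pseudocount, at a limma adjusted p of 0.098.

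Median-of-ratios scaling moved the median of all loci between EC and NEC from 0.32 to 0.0040 in CS and from 0.16 to 0.0089 in SG, and that of the interaction from -0.16 to 0.013. The share of called loci that were higher went from 65.1% to 50.1% in CS and from 31.9% to 53.7% in the interaction, and between the cultivars from 59.5% to 47.4% in NEC and from 36.9% to 49.3% in EC. With it 12 cluster loci were lower in EC in each cultivar. Among all loci called with that scaling, 50.1% in CS and 51.4% in SG were higher. The share of all loci tested that were lower with that scaling is not given here.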
